A study of Mus musculus with 16 samples.

Results

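Sorted photoreceptors of mouse retinal organoids at days 28 and 35 of differentiation, called late here, were compared with those at days 21 and 25, called middle. The late group holds 4 libraries and the middle group 7, so that 11 of the 16 libraries of the series entered, and the 5 of day 18 were left out. They were chosen by the day in their labels, not by any measured value. All libraries carry the Nrlp-GFP genotype, a green fluorescent protein under the promoter of Nrl, and each was made from polyA RNA of flow-sorted GFP-positive cells. The middle group comprises 3 libraries from embryonic stem cells (ESC) at day 21, 1 from ESC at day 25, 1 from induced pluripotent stem cells (iPSC) at day 21 and 2 from iPSC at day 25. The late group comprises 1 ESC and 1 iPSC library at each of days 28 and 35. The ESC clones came from blastocysts of the transgenic mice, and the iPSC clones from embryonic fibroblasts of the same mice, reprogrammed with inducible lentiviral Oct3/4, Sox2, Klf4 and c-Myc. Stem cells at passages 15 to 25 entered differentiation under low oxygen, with taurine in the later medium. The labels do not say how many organoids or which clones a library holds, nor whether replicates were grown separately. The spread behind each p-value is therefore that between these samples and may be partly technical.

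The groups differ in medium as well as in age. Per the labels, retinoic acid was present from day 14 to day 26, with another passage of the protocol adding it at 500 nM at the medium change of day 10, and the whole medium was replaced by a serum-containing one at day 26. Every middle library was therefore taken before, and every late library after, that change. Age and medium cannot be told apart in this comparison.

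Rods are the dim-light photoreceptors and make up most photoreceptors of the mouse retina. After a precursor leaves the cell cycle, Nrl directs it to the rod fate, with Crx and Nr2e3 acting beside it, and the cell then builds the light-response cascade, an outer segment of stacked membrane discs on a modified cilium, and a ribbon synapse. In the cascade, activated visual pigment switches on the G protein transducin (Gnat1 is its rod alpha subunit), transducin activates the cGMP phosphodiesterase (Pde6a, Pde6b, Pde6g), and the fall in cGMP closes the cation channel (Cnga1, Cngb1), after which guanylate cyclases (Gucy2e, Gucy2f) restore cGMP. Cones use related but separate proteins, among them the phosphodiesterase subunit Pde6c and the short-wavelength opsin Opn1sw.

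Levels are read counts scaled to library size (CPM), recovered from the deposited gene values, which are a transform of CPM, and are compared between libraries and not between genes, since they are not divided by length. Differences are late minus middle on the log2(CPM + 1) scale, where changes of low genes appear smaller than they are, with the cell source as a covariate and limma's standard error. A gene is described as called where its p, adjusted by Benjamini-Hochberg over all genes, was under 0.05. The libraries had effective totals of 4637962 counts (iPSC day 28) to 18369608 counts (ESC day 35), so that 1 count was worth 0.216 and 0.0544 CPM at these ends, and low levels were least precise in the iPSC day 28 library. Nrl, the gene behind the sorting reporter, was present in every library, at 1067 CPM in ESC day 28, 556 in ESC day 35, 1921 in iPSC day 28 and 1860 in iPSC day 35, against 321, 932 and 1915 CPM as the lowest, median and highest middle library. The word postmitotic does not describe all of them: the proliferation antigen Mki67 was at 84.2 CPM in ESC day 28 and 35.3 in ESC day 35, within the middle range of 9.60 to 135, and at 5.14 and 1.20 CPM in iPSC days 28 and 35, below it. Some libraries stood apart. The ESC day 35 library held markers of Müller glia and pigment epithelium at levels given below, and the library labelled iPSC day 25 replicate 1 held 3 Y-linked genes at a mean of 11.5 CPM, above the other iPSC libraries, at no more than 1.48 CPM, and below the ESC libraries at 25.6 to 73.8 CPM.

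Of 14836 genes tested, 179 were called, 57 higher and 122 lower in the late libraries. These are 1.21%, 0.384% and 0.822% of the genes tested, the shares to set beside the calls in any gene list below. Of all genes tested, 7416 had a positive and 7420 a negative difference. Without an adjustment for multiple tests, 1250 genes (8.43%) had a p under 0.05 in the higher direction and 1314 (8.86%) in the lower. All 4 late libraries lay above all 7 middle libraries for 160 genes (1.08%) and below them for 300 (2.02%). Of the called genes, 47 of the 57 higher and 93 of the 122 lower were separated in this way. The library that most often fell inside the middle range was ESC day 28, which lay outside it for 49 of the 57 higher genes and 95 of the 122 lower ones. ESC day 35 lay outside for 56 and 116, iPSC day 28 for 57 and 121, and iPSC day 35 for 55 and 122.

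The differences were mostly larger at day 35 than at day 28. Measured against the same 7 middle libraries, the absolute difference was larger at day 35 in 51 of the 56 higher genes measured at both days and in 101 of the 122 lower genes. The median difference of the higher genes was 1.39 at day 28 and 1.86 at day 35, and that of the lower genes -1.24 and -1.67. Both days share the middle libraries, and no test between the late days was made. With the day 28 pair alone as the late group no gene passed the limma test, although 1310 had an unadjusted p under 0.05. With the day 35 pair alone 144 passed, 62 higher and 82 lower.

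**Figure D1:**
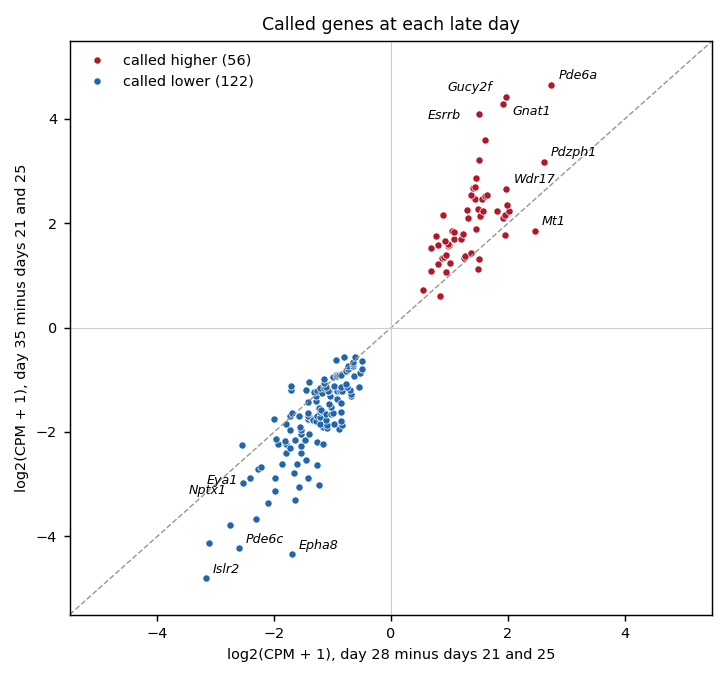
Difference from the 7 libraries of days 21 and 25 on the log2(CPM + 1) scale, day 28 on the x axis and day 35 on the y axis, for the called genes measured at both late days (red, 56 higher; blue, 122 lower). The dashed line marks equal differences; 51 red and 101 blue points lie further from 0 on the y axis than on the x axis, with Gucy2f, Gnat1 and Esrrb well above the line and Epha8 well below it.

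The number of calls changed with single libraries of both groups. Without ESC day 35 the limma test called 0 genes (2184 at an unadjusted p under 0.05, smallest adjusted p 0.052), and without iPSC day 35 also 0 (2126, smallest adjusted p 0.065). Without ESC day 28 it called 312. Leaving out a middle library gave between 14 calls, without iPSC day 25 replicate 1, and 267, without iPSC day 25 replicate 2. Without ESC day 21 replicates 1, 2 and 3 the calls were 118, 34 and 54, without ESC day 25 they were 185, and without iPSC days 21 and 28 they were 34 and 21. Each of the 179 genes kept its sign in each fit with 1 library left out. The genes were selected from these same libraries, so a kept sign is no independent check of direction. With ESC day 35 and iPSC day 25 replicate 1 both left out, an alternative chosen after seeing the data, 0 genes were called (1699 at an unadjusted p under 0.05) and all 179 kept their sign. Within the ESC libraries alone 29 genes were called, and within the iPSC libraries alone 0 (2803 at an unadjusted p under 0.05, smallest adjusted p 0.065).

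**Figure D2:**
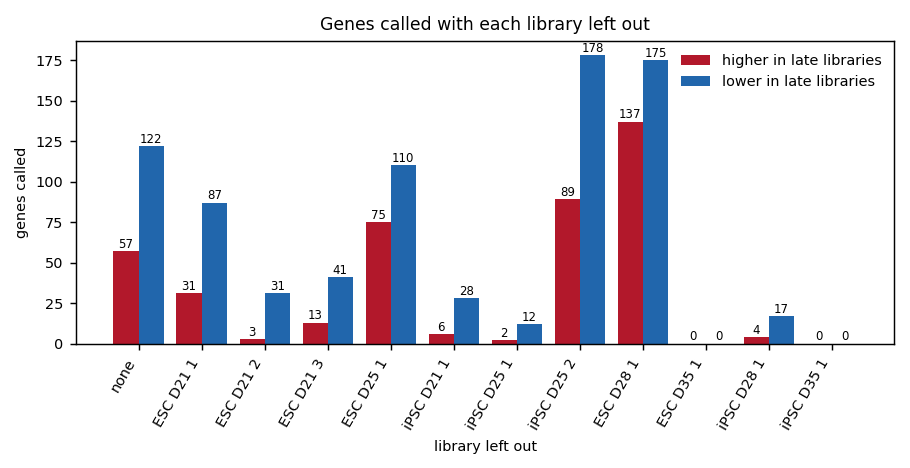
Number of genes called by limma (y axis) in the comparison of all 11 libraries (none) and with each library left out (x axis), higher in red and lower in blue. The bars are at 0 without either day 35 library and highest without ESC day 28 (137 and 175) and without iPSC day 25 replicate 2 (89 and 178).

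Most genes of the rod light response had higher values in the late libraries, and 3 of the 20 tested (with 0.384% of all genes called higher) passed the test: Pde6a, Gucy2f and Gnat1. Transducin alpha, Gnat1 (chromosome 9, 107674474 to 107679712, minus strand, GRCm38), was at 12.2 CPM in ESC day 28, 139 in ESC day 35, 104 in iPSC day 28 and 248 in iPSC day 35. The middle libraries had 3.15, 6.66 and 21.2 CPM as their lowest, median and highest. In the plot of levels by day 3 late libraries stood clear of every middle library, and ESC day 28 lay inside their range. Gnat1 rose by 3.09 ± 0.59 (SE; adjusted p 0.035), by 1.92 when only day 28 and by 4.28 when only day 35 was set against the middle days. Pde6a, the rod phosphodiesterase alpha subunit, was at 29.2, 126, 66.4 and 226 CPM in ESC day 28, ESC day 35, iPSC day 28 and iPSC day 35, against a middle range of 2.08 to 23.9 CPM with a median of 3.29. All 4 late libraries exceeded all 7 middle ones, and the rise of 3.70 ± 0.56 (adjusted p 0.019) was the largest among called genes with a mean of at least 5 CPM. Without ESC day 35 the differences were 2.54 for Gnat1 (adjusted p 0.11) and 3.26 for Pde6a (0.063).

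Gucy2f, 1 of the guanylate cyclases of photoreceptor outer segments (chromosome X, 142081160 to 142196931, minus strand), was at or below 1.83 CPM at days 21 and 25. Its middle libraries had 0, 0.091 and 1.83 CPM as lowest, median and highest, and its late libraries 1.86 CPM in ESC day 28, 34.7 in ESC day 35, 10.2 in iPSC day 28 and 25.1 in iPSC day 35. The lowest late library was thus barely above the highest middle one, and the others were well above it. The rise was 3.20 ± 0.56 (adjusted p 0.029; 2.44 and 0.063 without ESC day 35). The RefSeq promoter table of build GRCm38.p6 holds a window for Gucy2f, and the 250 bases before its start site (chrX:142196937-142197186, minus strand) are shown because they carry a pair of matches, in capitals, to TAATCC, the core that CRX binds, at 84 and 59 bases before the start.
Gucy2f: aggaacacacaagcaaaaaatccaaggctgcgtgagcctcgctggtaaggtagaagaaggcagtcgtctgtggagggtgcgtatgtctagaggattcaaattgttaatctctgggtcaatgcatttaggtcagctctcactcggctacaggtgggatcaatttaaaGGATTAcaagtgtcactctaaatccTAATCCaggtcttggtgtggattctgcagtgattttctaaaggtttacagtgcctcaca

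The share of promoters with such a match was counted over the called genes and over all genes. TAATCC, read on both strands of windows from 250 bases before to 50 after the start, was in 6 of 59 windows of the called higher genes (10.2%), 4 of 131 of the called lower genes (3.05%), and 5.77% of the 14029 windows of all genes tested. The NRL core TGCTGA was in 16.9%, 13.0% and 15.9% of them, and AAGGTCA, the core bound by ESRRB, in 1.69%, 6.11% and 3.29%. The windows belong to 45 of the 57 higher and 93 of the 122 lower genes. No motif is part of another, and a match describes the window only.

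The other 17 genes of the cascade were not called, and 16 of them had a positive difference. Of the 20 tested, 19 had a positive difference, 16 of them with an unadjusted p under 0.05, and the median was 1.88 with a range of -0.14 to 3.70, where the median of all 14836 genes was 0.00. Pde6b, the phosphodiesterase beta subunit, differed by 1.32 ± 0.60 (adjusted p 0.29), and Sag, the rod arrestin that quenches the pigment, by 1.28 ± 0.62 (0.32). Pde6b was at 742, 667, 1616 and 2002 CPM in ESC day 28, ESC day 35, iPSC day 28 and iPSC day 35, against 118, 541 and 1246 in the middle libraries, so the ESC late libraries overlapped the middle ones. Named here after their values were seen, Rcvrn (recoverin, a calcium sensor) and Pde6g (the inhibitory phosphodiesterase subunit) differed by 3.08 ± 0.73 (adjusted p 0.065) and 3.17 ± 0.78 (0.074). Pde6g lay at 260 to 933 CPM in the late libraries and 10.9 to 243 in the middle ones, without overlap. Grk1, the kinase that phosphorylates the pigment, was the exception at -0.14 ± 0.42. Over the fits with another table, scaling, filter, day or library the median of the list stayed between 1.24 and 2.44. It was 1.30 in ESC and 2.44 in iPSC libraries alone. More rods and more RNA per rod cannot be told apart in bulk samples.

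**Figure D3:**
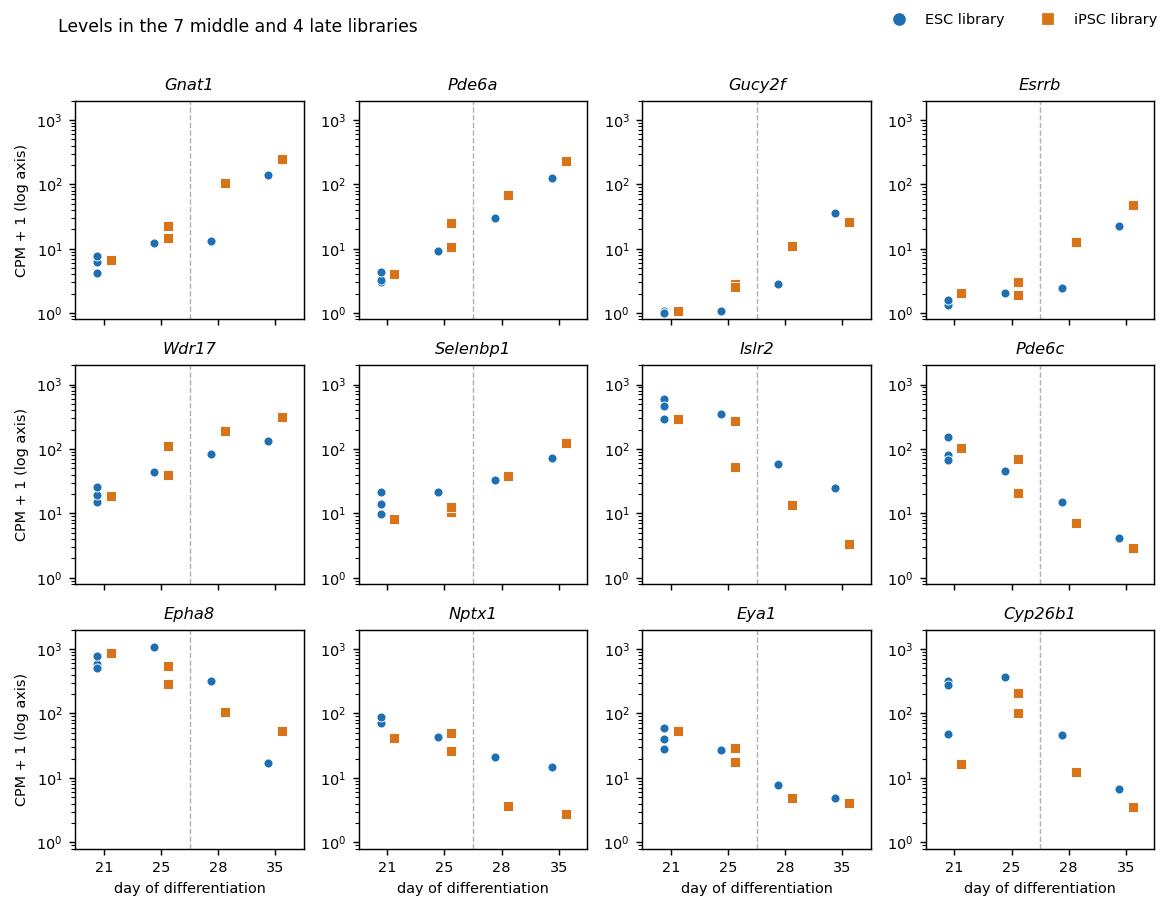
CPM + 1 on a log axis by day of differentiation in the 7 middle (days 21 and 25) and 4 late (days 28 and 35) libraries, for 6 genes with higher and 6 with lower late levels; each point is 1 library, ESC blue circles and iPSC orange squares, and the dashed line parts the groups. Gnat1 goes from 3.15 to 21.2 CPM before the line to 139 and 248 CPM at day 35, and Pde6c from 20.0 to 151 CPM down to 3.09 and 1.88; Cyp26b1 did not pass the test.

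Genes of the outer segment and its cilium had a positive difference in 31 of 32 tested, with a median of 0.74 (range -0.04 to 3.02). Only Wdr17 was called, where 0.384% of all genes were called higher. Wdr17 encodes a WD-repeat protein. It was at 82.8, 131, 190 and 315 CPM in ESC day 28, ESC day 35, iPSC day 28 and iPSC day 35, against 14.2, 24.2 and 111 CPM as lowest, median and highest middle library. ESC day 28 fell below the highest middle library, iPSC day 25 replicate 2, and the other late libraries lay above all of them. The rise was 2.32 ± 0.43 (adjusted p 0.033; 2.23 and 0.10 without ESC day 35). Of its 4 promoter windows in the RefSeq table, the 250 bases before the start of 1 (chr8:54718669-54718918, minus strand, GRCm38.p6) hold both a TAATCC and a TGCTGA, in capitals, and are shown for that reason.
Wdr17: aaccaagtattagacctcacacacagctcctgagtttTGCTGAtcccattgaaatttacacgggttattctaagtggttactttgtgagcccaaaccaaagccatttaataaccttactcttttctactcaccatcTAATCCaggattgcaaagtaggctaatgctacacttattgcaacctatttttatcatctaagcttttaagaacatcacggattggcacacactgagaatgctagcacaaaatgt

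Prph2, the peripherin that shapes the disc rims, was not called. It was at 808, 746, 1943 and 2520 CPM in the late libraries, in the order ESC day 28, ESC day 35, iPSC day 28 and iPSC day 35, against 202, 553 and 1210 CPM in the middle ones. Both late iPSC libraries exceeded, and both late ESC libraries fell inside, the middle range, and the difference was 1.30 ± 0.58 (adjusted p 0.27).

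In the ribbon synapse list 21 of 24 genes tested had a positive difference, with a median of 0.52. Nrxn3, a presynaptic adhesion protein, was the called member, where 0.384% of all genes were called higher. Nrxn3 was at 27.0, 88.9, 31.9 and 36.2 CPM in ESC day 28, ESC day 35, iPSC day 28 and iPSC day 35 and at 6.41 to 18.4 CPM in the middle libraries. The groups did not overlap, the rise was 1.78 ± 0.35 (adjusted p 0.037), and without ESC day 35, its highest library, it was 1.33 (0.097). In the list of retinoid handling 10 of 12 were positive, the median was 0.45 and none was called. Its members of the highest level were Rbp3, the retinoid carrier between photoreceptors and pigment epithelium, at 0.29 ± 0.59 (adjusted p 0.86), and Abca4, the retinaldehyde flippase of the discs, at 0.30 ± 0.40 (0.76). The medians of both lists kept their sign in every alternative fit, at 0.14 to 0.80 and 0.24 to 0.66.

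Among 19 transcription regulators of photoreceptors 10 had positive and 9 negative differences, and 1 was called. This was Esrrb (chromosome 12, 86361117 to 86521628, plus strand), an orphan nuclear receptor that is known in rods as an NRL target. Esrrb was at 1.42 CPM in ESC day 28, 21.9 in ESC day 35, 11.7 in iPSC day 28 and 47.1 in iPSC day 35. The middle libraries had 0.347, 0.893 and 2.00 CPM as lowest, median and highest. As for Gnat1, ESC day 28 lay inside the middle range and the other late libraries above it. The rise was 2.79 ± 0.56 (adjusted p 0.041; 2.30 and 0.13 without ESC day 35), 1.50 at day 28 and 4.10 at day 35. Neither of its 2 promoter windows held any of the motifs. The regulators that set the rod fate were not called: Nrl differed by 0.56 ± 0.56 (95% interval -0.66 to 1.78), Crx by -0.14 ± 0.36 (-0.93 to 0.64) and Nr2e3 by 0.12 ± 0.62 (adjusted p 0.66, 0.88 and 0.95). In ESC day 35 Crx was at 874.5 and Nr2e3 at 256 CPM, below middle ranges of 1046 to 2701 and 304 to 1696 CPM. The summed CPM of the 19 regulators was 3975 in that library, below the 5460 to 13607 of the middle libraries. The other late libraries lay inside these 3 ranges. The sort on the Nrl reporter bears on the level of Nrl itself.

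Onecut1, a homeodomain factor of horizontal cells and early photoreceptor precursors, was lower in all 4 late libraries than in all 7 middle ones but was not called. It stood at 18.0, 0.948, 19.4 and 2.75 CPM in ESC day 28, ESC day 35, iPSC day 28 and iPSC day 35, against 31.1, 40.8 and 79.2 CPM as lowest, median and highest middle library. The difference was -2.72 ± 0.59 (adjusted p 0.052). It was -1.27 at day 28 and -4.15 at day 35, so both day 35 libraries held far less than the day 28 ones. The horizontal cell list as a whole had a median of -0.04 over 10 genes.

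Beside these, the largest rises were in genes outside the photoreceptor lists. Kirrel, an adhesion protein of the immunoglobulin family, was at 46.2, 118, 64.3 and 143 CPM in ESC day 28, ESC day 35, iPSC day 28 and iPSC day 35, against 9.14 to 30.7 in the middle libraries, and rose by 2.07 ± 0.33 (adjusted p 0.023). Selenbp1, a selenium-binding protein with methanethiol oxidase activity, was at 31.4, 71.1, 37.0 and 122 CPM against 7.11 to 20.6 and rose by 2.15 ± 0.39 (0.032). Neither overlapped between the groups. Gckr, the glucokinase regulator, also did not overlap (6.33 to 81.3 against 0.705 to 5.79 CPM; rise 2.59 ± 0.54). Others of the 12 largest rises overlapped in at least 1 library: Pdzph1 rose by 2.89, the aryl hydrocarbon receptor Ahr by 2.36, the metallothionein Mt1 by 2.17 and the membrane protein Stom by 2.09. Mt1 differed from the others in that its day 28 difference, 2.46, was above its day 35 difference, 1.86, with iPSC day 35 at 10.1 CPM inside the middle range of 1.95 to 11.7. Without ESC day 35 the adjusted p of these genes lay between 0.081 (Kirrel) and 0.14 (Gckr).

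Cone genes went the other way. Of 14 tested, 13 had a negative difference, as had 7420 of all 14836 genes. The test called 2 of them, where 0.822% of all genes were called lower. The median was -0.56 (range -3.42 to 0.08), and it stayed between -1.11 and -0.31 in the alternative fits. Pde6c, the catalytic phosphodiesterase subunit of cones (chromosome 19, 38132781 to 38183958, plus strand), was at 14.2 CPM in ESC day 28, 3.09 in ESC day 35, 6.20 in iPSC day 28 and 1.88 in iPSC day 35. The middle libraries had 20.0, 68.0 and 151 CPM as lowest, median and highest. Every late library lay below every middle one, and the difference was -3.42 ± 0.50 (adjusted p 0.018), -3.30 in ESC and -3.55 in iPSC libraries alone. Ccdc136, a coiled-coil protein, was at 367, 65.5, 294 and 144 CPM against 346 to 1106 CPM and fell by 2.13 on the log2 scale (adjusted p 0.041). Without ESC day 35 neither was called (Pde6c -3.07, adjusted p 0.063; Ccdc136 -1.62, 0.12).

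The cone opsin and the other cone landmarks were not called. Opn1sw was at 92.0 and 40.5 CPM in ESC and iPSC day 28, inside the middle range of 39.0 to 460, and at 3.09 and 4.20 CPM in ESC and iPSC day 35, below it. Its difference was -3.04 ± 0.88 (adjusted p 0.11), split into -1.16 at day 28 and -4.94 at day 35. Arr3, the cone arrestin, and Gnat2, the cone transducin alpha subunit, were at 1.58 to 6.16 and 1.91 to 8.0 CPM in the late libraries and overlapped the middle ones at 2.03 to 7.81 and 2.16 to 19.5 CPM, with differences of -0.30 ± 0.34 and -0.51 ± 0.52.

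The largest fall was that of Islr2 (chromosome 9, 58196297 to 58204319, minus strand), a leucine-rich-repeat and immunoglobulin membrane protein of developing axons. It was at 57.8 CPM in ESC day 28, 23.6 in ESC day 35, 12.5 in iPSC day 28 and 2.30 in iPSC day 35. The middle libraries had 50.8, 293 and 589 CPM as lowest, median and highest, the lowest being iPSC day 25 replicate 2, the only one to reach the late range. Islr2 fell by 3.97 ± 0.53 on the log2 scale (adjusted p 0.016; -3.87 and 0.057 without ESC day 35, -3.47 and 0.065 without iPSC day 35). It was the only called gene of 26 in the axon guidance list, whose median was -0.01.

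Nptx1 and Eya1 had the smallest adjusted p among the named falls, 0.013 each. Nptx1, a secreted neuronal pentraxin that clusters glutamate receptors, was at 19.9, 13.7, 2.64 and 1.75 CPM in ESC day 28, ESC day 35, iPSC day 28 and iPSC day 35, against 25.1, 49.1 and 86.7 in the middle libraries. Eya1, a phosphatase and co-activator of homeodomain factors in eye and ear development, was at 6.85, 3.92, 3.89 and 3.10 CPM against 16.9, 27.8 and 57.8. Both were lower in all 4 late than in all 7 middle libraries, and for Eya1 the late libraries lay close together. They fell by 2.74 ± 0.33 and 2.65 ± 0.31 on the log2 scale. Unlike Pde6c or Opn1sw, they were nearly as low at day 28 (-2.53 and -2.42) as at day 35 (-2.98 and -2.89). Without ESC day 35 the adjusted p was 0.052 for both.

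Epha8, an ephrin receptor kinase, was lowest at day 35. It was at 321 CPM in ESC day 28, 16.2 in ESC day 35, 103 in iPSC day 28 and 53.3 in iPSC day 35, against 285, 578 and 1074 CPM as lowest, median and highest middle library. ESC day 28 was inside the middle range. Epha8 fell by 3.03 ± 0.63 on the log2 scale (adjusted p 0.043), by 1.70 at day 28 and by 4.34 at day 35, and without ESC day 35 the difference was -2.12 (0.092).

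The other 7 of the 12 largest falls were between -3.64 and -2.47. Emilin3, an extracellular matrix glycoprotein, and Pla2g2f, a secreted phospholipase, were below every middle library in all 4 late ones, at 0.0576 to 2.05 against 4.51 to 44.1 CPM and at 0.112 to 2.18 against 2.20 to 31.7 CPM. The serum retinol carrier Rbp4 (-3.27), the proneural factor Neurog1 (-2.74), the neuronal protease Ecel1 (-2.54), the proteoglycan Spock1 (-2.48) and the co-repressor Ripply3 (-2.47) also fell. ESC day 28 lay inside the middle range for each of these 5. For Ecel1 and Spock1 ESC day 35 did too, at 6.73 and 22.8 CPM, where the lowest middle libraries had 6.49 and 10.8. Neurog1 was at 4.22 CPM in ESC day 28 and at or under 0.216 in the other late libraries, against 2.11 to 26.7 CPM before. Without ESC day 35 the adjusted p of these 7 genes lay between 0.057 (Emilin3) and 0.12 (Neurog1).

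Cyp26b1, which breaks down retinoic acid, was not called. It was at 45.9, 5.69, 11.5 and 2.53 CPM in ESC day 28, ESC day 35, iPSC day 28 and iPSC day 35, against 15.3, 205 and 361 CPM as lowest, median and highest middle library. Of the middle libraries, iPSC day 21 at 15.3 CPM reached the late range, and the difference was -3.44 ± 0.79 (adjusted p 0.058). In the list of retinoic acid synthesis, breakdown and response none of 17 genes tested was called, 7 differences were positive and 10 negative, and the median was -0.25, between -0.80 and -0.12 in the alternative fits. Aldh1a1, a retinaldehyde dehydrogenase that makes retinoic acid and the other named member, split by source: it was at 93.2 and 80.9 CPM in the late ESC and 5.75 and 9.30 CPM in the late iPSC libraries, with a middle range of 4.71 to 187 (-0.86 ± 0.99).

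Progenitor and cell-cycle lists leaned lower without a call. Of 24 progenitor genes 18 had a negative difference (median -0.82), and of 32 genes of DNA replication and mitosis 30 did (median -0.51). The shift lay in the iPSC libraries, where the medians were -1.48 and -1.20, against -0.02 and 0.08 in the ESC libraries alone. Whether the sources differ was tested gene by gene only, in the interaction given below. Mki67 differed by -3.55 in iPSC and 0.36 in ESC libraries alone, and by -1.49 ± 0.83 over both (adjusted p 0.38). The highest-level members were Notch1, the receptor that keeps progenitors cycling (-0.17 ± 0.56), Rax, an eye-field and photoreceptor factor (-0.80 ± 0.51), Top2a, a topoisomerase of dividing cells (-0.50 ± 0.41), and Pcna, the replication clamp (-0.06 ± 0.14). The summed CPM of the cell-cycle list was 833 in ESC day 28 and 490 in ESC day 35, within the middle range of 335 to 1252, and 301 and 311 in the late iPSC libraries, below it.

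**Figure D4:**
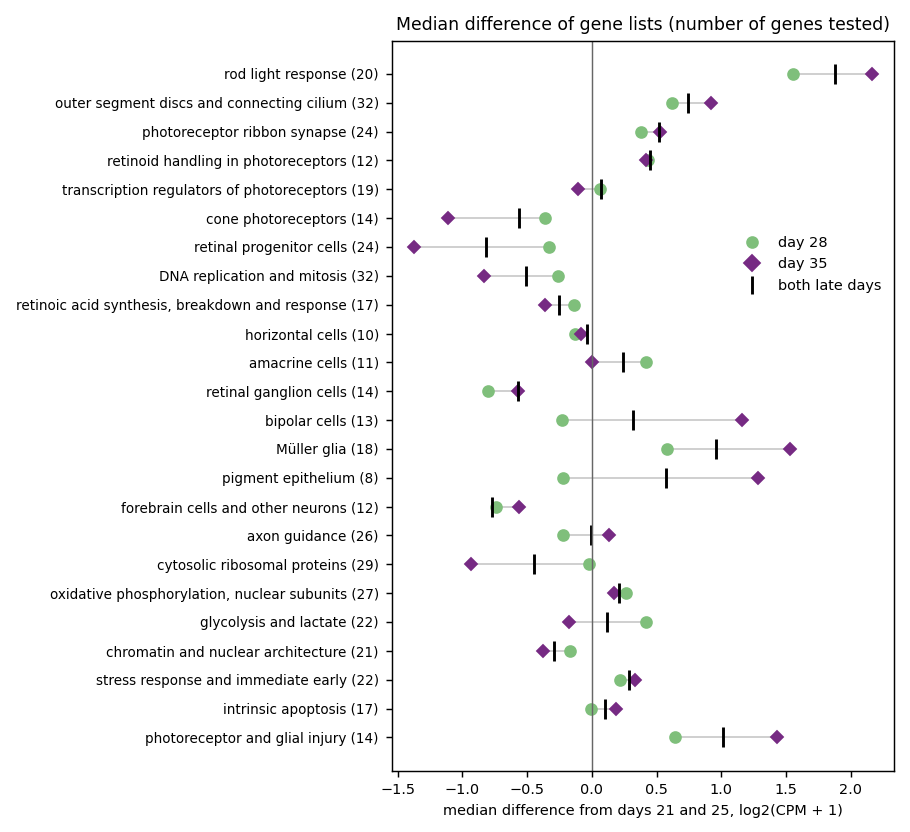
Median difference from the middle days on the log2(CPM + 1) scale (x axis) for gene lists (y axis, with the number of genes tested), at day 28 (green circles), day 35 (purple diamonds) and both late days together (black bars). Rod light response stands at 1.55 and 2.16, cone at -0.36 and -1.11, and the bipolar and pigment epithelium lists are below 0 at day 28 and at 1.16 and 1.28 at day 35.

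The summed markers of Müller glia and of pigment epithelium, the latter almost wholly from Ttr, were highest in the ESC day 35 library. Those of several other cell types were not. The summed CPM of the 18 Müller glia markers was 2949 there, against 1206 in ESC day 28, 881 in iPSC day 28, 399 in iPSC day 35 and 440 to 1130 in the middle libraries. That of the 12 pigment epithelium markers was 2193, of which Ttr, a thyroid hormone carrier, gave 2072, against 80.5, 289 and 109 in the other late and 45.3 to 175 in the middle libraries. Named after their values were seen, the glial water channel Aqp4 was at 222 CPM in ESC day 35 and 5.54, 29.2 and 5.67 in the other late libraries, and the bipolar receptor Grm6 at 78.8 CPM in ESC day 35 and at most 1.23 in the others. Some other markers did not stand high there. The sum of the 15 bipolar markers was 1002 CPM in ESC day 35, below the 1254 to 1782 CPM of the middle libraries. So were those of ESC day 28 (1197 CPM), iPSC day 28 (924 CPM) and iPSC day 35. Gene by gene the bipolar list differed: its median over the 13 genes tested was 1.16 with day 35 alone as the late group. Over both late days it was 0.32 with and -0.34 without the ESC day 35 library, and 1.50 in ESC and -0.87 in iPSC libraries alone. The glial marker Dkk3 was at 181 CPM in ESC day 35, inside its middle range of 38.9 to 381, and the pigment gene Dct at 30.5 CPM, inside a middle range that reached 114 CPM (differences -0.95 and -1.71, adjusted p 0.54 and 0.053). The horizontal cell sum was 726 CPM there, against 788 to 1607 in the middle libraries. By contrast, the amacrine sum was 499 CPM, close to the 507 of ESC day 28, and both lay above the 277 to 425 of the middle libraries. The defining pigment epithelium genes Rpe65 and Best1 did not reach the level for testing. No Müller glia or pigment epithelium gene was called. Their medians were 0.96 and 0.57 with, and 0.16 and -0.17 without, the ESC day 35 library, while that of the rod light response was 1.88 with it and 1.75 without. The part of these cells in the calls was not tested. The summed rod list was higher in both iPSC late libraries, 13269 and 15089 CPM, than in any middle library (1483 to 8990), and in the ESC late libraries, 6533 and 7359 CPM, it was inside that range.

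**Figure D5:**
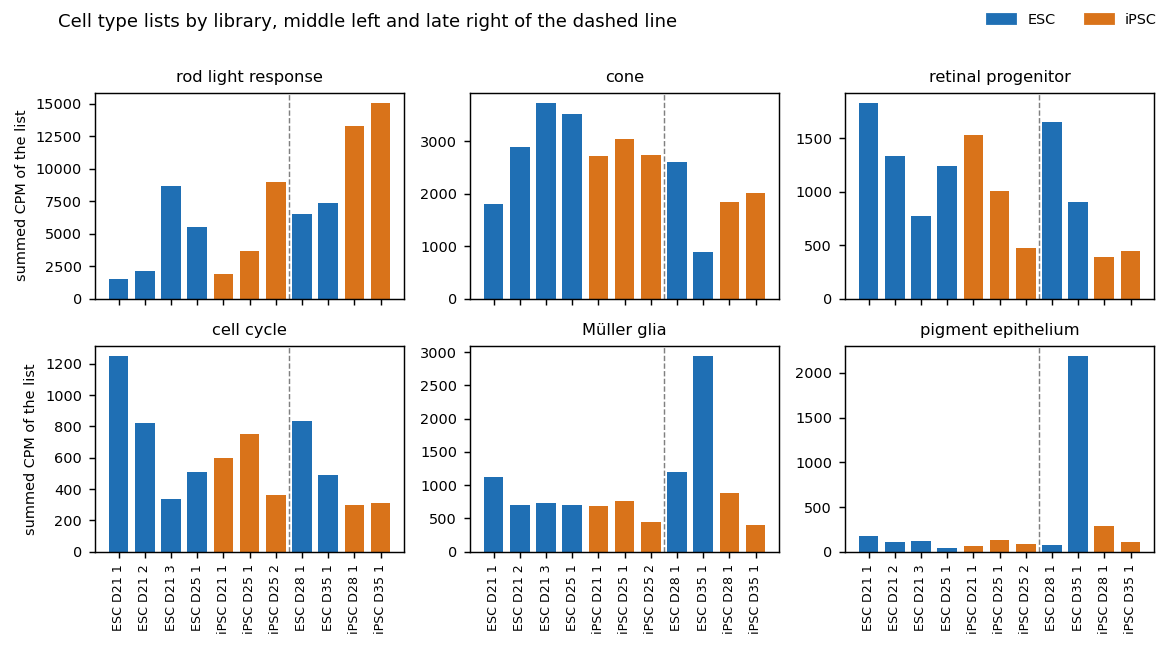
Summed CPM of 6 marker lists (y axes, each from 0) in each library (x axis), middle libraries left and late libraries right of the dashed line, ESC blue and iPSC orange. Müller glia and pigment epithelium sums peak in ESC day 35 at 2949 and 2193 CPM, with 2072 CPM of the latter from Ttr. The rod sum peaks in the late iPSC libraries at 13269 and 15089 CPM.

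A few members of other cell lists were called. Prkca, a kinase of rod bipolar cells that other cells also carry, rose by 1.29 ± 0.27 (adjusted p 0.042), with 61.4, 138, 74.0 and 76.1 CPM in ESC day 28, ESC day 35, iPSC day 28 and iPSC day 35 and 24.3 to 56.7 in the middle libraries, where the other 12 bipolar genes tested were not called. Cryab, a small heat-shock crystallin, rose by 1.96 ± 0.39 (0.040) from 0.513 to 2.48 CPM to 4.03 to 18.8 CPM, and only 3 of the 13 lens genes passed the filter. Neither was called without ESC day 35 (adjusted p 0.13 and 0.10). Amacrine, ganglion cell, horizontal, blood and vessel, and pluripotency lists had no called gene, and the 14 ganglion cell genes summed to 41.6 to 292 CPM in the late and 38.5 to 708 CPM in the middle libraries.

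The lists of general cell functions held few calls. None of 29 ribosomal protein genes was called, but 28 differences were negative, with a median of -0.45. Against the pooled middle days the median was -0.93 at day 35 and -0.02 at day 28. The middle days themselves differed, with list sums of 11040 to 12097 CPM at day 21 and 5482 to 8663 CPM at day 25. Sums in ESC and iPSC were 10870 and 7083 CPM at day 28 and 4756 and 4613 CPM at day 35. Rpl4, for example, was at 846 and 502 CPM in ESC and iPSC day 28 and at 463 and 351 CPM in ESC and iPSC day 35, against 450 to 964 in the middle libraries (-0.46 ± 0.27). Chromatin genes had a median of -0.29 over 21 genes with 17 negative and none called. Against it stood Hmgn1, a nucleosome-binding protein, which was at 408 to 661 CPM in the late and 245 to 387 in the middle libraries without overlap (0.73 ± 0.19, adjusted p 0.080). Nuclear genes of oxidative phosphorylation had a median of 0.21 over 27, and glycolysis 0.12 over 22, none called. Stress genes (median 0.29 over 22) and apoptosis genes (0.10 over 17) also held no call.

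Lcn2, a secreted iron-siderophore carrier, was the called member of the injury list, where 0.384% of all genes were called higher. Its call does not bear on the list as a whole. No middle library reached the 1 CPM of the filter, so Lcn2 entered the test only through the late libraries. It was at 1.16, 3.01, 1.86 and 2.50 CPM in ESC day 28, ESC day 35, iPSC day 28 and iPSC day 35 and at 0 to 0.535 CPM in the middle libraries, a rise of 1.29 ± 0.24 (adjusted p 0.034; 0.11 without ESC day 35). The list's median was 1.01 over 14 genes, and also 1.01 without ESC day 35. Its summed level was 984 CPM in ESC day 35, against 103 to 205 CPM in the middle libraries. In ESC day 28, iPSC day 28 and iPSC day 35 the sum was 136, 280 and 311 CPM. Imprinted genes moved both ways: the cell-cycle inhibitor Cdkn1c fell by 1.59 ± 0.30 on the log2 scale (adjusted p 0.033), with 18.0 to 34.1 CPM late and 28.6 to 108 before, and the splicing-related Zrsr1 rose by 1.11 ± 0.22 (0.041), from 13.4 to 24.1 CPM to 27.0 to 59.8 without overlap.

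Whether the late minus middle difference itself differed between ESC and iPSC libraries was tested as an interaction. It was called for 7 of the 14836 genes (0.0472%), and 1158 had an unadjusted p under 0.05. The 3 with the smallest p were Tma7-ps, Gm2974 and BC002163, and all 7 are pseudogenes or predicted genes. All but Gm3608 passed the filter of 1 CPM in 2 libraries only through the late ESC libraries, where they were high. Their entry to the test thus depended on the contrast tested. Tma7-ps was at 13.1 and 14.5 CPM in ESC days 28 and 35, at 0 and 0.217 in iPSC days 28 and 35 and at no more than 0.447 in the middle libraries. Their reads can be shared with near-identical copies, so these levels are uncertain. No gene named above was among them: the interaction adjusted p was 0.75 for Nrl and 0.69 for Crx.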

How the data were processed

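The gene table, the per-transcript estimated counts and the per-transcript TPM of 16 libraries were used. Per the submitters' processing notes, Trimmomatic 0.36 trimmed the reads and kallisto 0.42.5 quantified them, with Ensembl release 84 cDNA as target per the design text. The estimated counts and TPM are kallisto's, as deposited by the authors, and these tables hold 65535 transcripts (65096, or 99.3%, matched in GENCODE M21). For the gene table the authors computed CPM with tximport and edgeR, per the design text, and deposited a transformed score, here turned back as CPM = 2 to the power of the square root of (value + 1), minus 1. Of 8688 genes above 0 in all libraries of both tables, 8488 (97.7%) then kept a constant ratio to TPM after 1 factor per library (tolerance 0.0001 in log2).

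Genes reaching 1 CPM in 2 or more of the 11 libraries were fitted with limma 3.58.1 (trend, R 4.3.3) on log2(CPM + 1), with stage and source as terms. Calls are Benjamini-Hochberg adjusted p under 0.05 over all 14836 genes. edgeR 4.0.16 and DESeq2 1.42.0, on rounded gene sums of the 11083 genes whose transcripts are all in the table (at least 10 counts in at least 2 libraries), were alternatives, beside other scalings, filters, days, sources and each library left out. On simulated counts of this comparison (14486 genes), limma called 14% of the genes set to differ 2-fold, 94% of those set to differ 4-fold and, wrongly, 6 others. The simulation gave every gene the same dispersion and held no source difference and no library that stood apart. Only genes with a mean of at least 5 CPM were changed. These shares therefore do not measure what the test can detect in the real libraries. Effective totals and the value of 1 count in CPM came from the ratio of the tables. All gene coordinates are GENCODE M21 on GRCm38, and promoter windows and miRNAs are RefSeq's. Promoters of chromosome 18 were not used, and of the genes described, Gnat1, Pde6c, Nptx1 and Eya1 had no window in the table.

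The members and gene lists were chosen with earlier results of these data known, and the lists of motile cilia and of RNA-binding proteins after called genes had been seen. Named are landmark genes, the 12 called genes that rose most and the 12 that fell most (mean of 5 CPM or more, no predicted genes or pseudogenes), up to 4 called members of a list by size, or its 2 highest members if it had no call, members that go against their list, and the 3 interaction genes of smallest p. The values of 1 named gene are not reported here.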

Additional observations from a re-analysis of the deposited data

Results flagged for a closer look

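In 6 of 124 groups examined (62 named genes, late and middle libraries each), a single library lay far from the rest of its group by Dixon's test, which chance alone gives in about 1 of 20 groups. Of these, 4 concern the library iPSC day 25 replicate 2 among the 7 middle libraries, in each case toward the late level. It held Ahr at 20.3 CPM, where the others had 4.13 to 7.0, Islr2 at 50.8 CPM (others 268 to 589), Rbp4 at 2.91 CPM (others 26.5 to 71.6) and Ripply3 at 7.30 CPM (others 19.2 to 36.6). Among the late libraries ESC day 28 held Neurog1 at 4.22 CPM, where the others had 0 to 0.216. ESC day 21 replicate 1 held Ccdc136 at 346 CPM, where the other middle libraries had 787 to 1106. Leaving out iPSC day 25 replicate 2 raised the number of called genes from 179 to 267, and leaving out ESC day 28 raised it to 312.

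The late minus middle difference was lower in iPSC than in ESC libraries for 7 genes by the limma interaction term, as log2 differences of the differences: Gm2974 (-4.50, adjusted p 0.016), Gm3608 (-4.11, 0.018), Gm13443 (-3.91, 0.045), Gm15920 (-3.87, 0.026), Tma7-ps (-3.79, 0.016), BC002163 (-3.25, 0.017) and Gm10093 (-2.76, 0.045). Both late ESC libraries stood high in each of them, for example at 58.9 and 64.5 CPM for Gm3608, where the late iPSC libraries had 1.12 and 3.39 CPM. All are predicted genes or pseudogenes, whose reads may be shared with close copies. Apart from Gm3608, they passed the filter only through the late ESC libraries.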

How the results depend on the processing

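The 179 calls (57 higher, 122 lower) became 180 to 203 under rescaled CPM, quantile normalization, a stricter filter, a pseudocount of 0.1 or no source term, 144 with day 35 alone as the late group, and 238 (96 higher) with all 16 libraries in the fit. They became 65 (25 higher, 40 lower) with edgeR and 670 (304 and 366) with DESeq2, which tested fewer genes, 833 (350 and 483) with limma array weights, 38 (12 and 26) with no filter, 74 (32 and 42) against day 21 alone and 29 (25 and 4) in ESC libraries alone. None was called, in either direction, by limma with day 28 alone (1310 at an unadjusted p under 0.05), against day 25 alone (1100), in iPSC libraries alone (2803) or with ESC day 35 and iPSC day 25 replicate 1 both left out (1699). With 1 library left out there were 0 to 312 calls, 0 to 137 higher and 0 to 178 lower, and the cause of these changes was not tested. The 7 interaction calls became 48 with no filter, 0 with a pseudocount of 0.1 (1192 at an unadjusted p under 0.05) and 0 to 55 with 1 library left out. The 160 genes with all late above all middle libraries became 210, and the 300 below became 288, under rescaled CPM, and ranged from 167 to 554 and from 315 to 645 with 1 library left out, where fewer libraries have to be separated. No paired analysis was possible because each late group holds replicate 1 only, so stage and replicate number share fewer than 2 numbers.

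None of the 32 called named genes changed sign, but each lost its call in 6 to 20 of up to 28 alternatives. Among named genes not called, 15 changed sign in at least 1. In ESC libraries alone the differences were -0.02 for Nrl, -0.57 for Nr2e3, 0.36 for Mki67, -0.30 for Rbp3, -0.19 for Abca4, 0.35 for Notch1, 0.04 for Top2a, 0.78 for Aldh1a1 and 0.59 for Dkk3. In iPSC libraries alone they were 0.37 for Crx, 0.02 for Rax, 0.18 for Pcna and 0.74 for Hmgn2. Crx, Pcna and Hmgn2 also turned positive with array weights (0.19, 0.04 and 0.33), with day 28 alone (0.10, 0.01 and 0.25), without ESC day 35 (0.15, 0.02 and 0.33) and without it and iPSC day 25 replicate 1 (0.08, 0.03 and 0.27). Against day 25 alone the differences were -0.50 for Nr2e3, 0.30 for Gnat2, -0.15 for Abca4 and 0.08 for Pcna. Nr2e3 was at -0.37 with day 35 alone, at -0.0 with edgeR and DESeq2 and at -0.19 to -0.01 in the 6 fits with 1 library left out where it turned (-0.05, -0.08 and -0.04 between). Notch1 was at 0.04 with edgeR and DESeq2 and at 0.04, 0.13 and 0.26 without ESC day 35, iPSC day 21 and iPSC day 28, and Apoe at 0.09 without iPSC day 35. Over all fits with 1 library left out the ranges were -0.27 to 0.15 for Crx, -0.19 to 0.70 for Nr2e3, -0.67 to 0.26 for Notch1, -0.14 to 0.02 for Pcna, -0.60 to 0.09 for Apoe and -0.54 to 0.33 for Hmgn2.

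The late group holds 1 library for each source and day, so its spread rests on 4 libraries, and the medium changed between the groups. The day 28 iPSC library was the shallowest, and genes near 1 CPM there rest on few counts. Transcript tables held part of the transcripts, so edgeR and DESeq2 did not test every gene.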

Other observations

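Genes of the axoneme, the shaft of motile cilia and flagella, were looked up after several were seen among the called genes, so the following is a description. Of 48 tested, 7 rose (0.384% of all genes did) and none fell, 40 differences were positive and the median was 0.80, against 0.0 over all genes. Wdr63, a dynein intermediate chain, was at 7.95, 18.0, 4.16 and 3.02 CPM in ESC day 28, ESC day 35, iPSC day 28 and iPSC day 35, against 0 to 2.29 CPM in the middle libraries (2.19 ± 0.40, limma adjusted p 0.033). Ccdc39, which sets the axoneme's repeat, was at 43.6, 96.6, 75.9 and 82.0 CPM against 15.6 to 42.6 (1.39 ± 0.26, 0.035), and Cfap61, of the radial spokes, at 13.1 to 23.0 against 4.45 to 10.6 (1.32 ± 0.22, 0.025). All 4 late libraries were above all 7 middle ones for these 3 genes. Dnah11, Ccdc113, Cfap126 and Meig1 were the other called members. The list's median was 0.58 without ESC day 35, 0.88 in ESC and 0.47 in iPSC libraries alone.

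RNA-binding proteins and factors of early development, several of them known targets of the miRNA let-7, were listed in the same way. Of 15, 5 fell (0.822% of all genes did) and 14 had a negative difference, with a median of -0.95. The mRNA-binding proteins Igf2bp1, Igf2bp2 and Igf2bp3 fell by 2.31, 0.95 and 1.39 on the log2 scale (limma adjusted p 0.027, 0.028 and 0.016), the receptor Tgfbr1 by 0.87 (0.037) and the Argonaute protein Ago2 by 0.57 (0.045). Igf2bp1 was at 26.7, 5.26, 5.70 and 2.92 CPM in ESC day 28, ESC day 35, iPSC day 28 and iPSC day 35, against 24.9 to 51.8 CPM before. Igf2bp3 was at 13.0 to 24.2 CPM in the late and 31.8 to 52.3 CPM in the middle libraries, without overlap. The let-7a-5p sequence (RefSeq) is shown with its seed, bases 2 to 8, in capitals, followed by stretches of the longest annotated 3′ UTR of Igf2bp1, Igf2bp3 and Lin28a with the seed's complement in capitals. Lin28a, a blocker of let-7 processing, was not called (-1.06 ± 0.31, adjusted p 0.11).
let-7a-5p: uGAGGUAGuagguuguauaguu
Igf2bp1: tataaatggatgaaCTACCTCa
Igf2bp3: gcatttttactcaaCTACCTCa
Lin28a: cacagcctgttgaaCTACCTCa

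The complement CTACCTC was in the 3′ UTR of 28 of 116 called lower genes (24.1%), 4 of 53 called higher genes (7.55%) and 10.8% of 13807 tested genes with an annotated 3′ UTR. The median 3′ UTR length was 1946, 1161 and 1233 bases, and per 1000 bases there were 0.128, 0.043 and 0.0726 matches. The same count for the seed complement of miR-9-5p, ACCAAAG, gave 21.6%, 13.2% and 14.4%, with 0.0962, 0.108 and 0.0991 matches per 1000 bases. That of miR-182-5p, TTGCCAA, gave 17.2%, 11.3% and 12.7%, with 0.082, 0.0753 and 0.0878. Matches were counted on annotated sequence alone, and the libraries, made from polyA RNA, do not measure mature miRNAs.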
